A study of Rattus norvegicus with 34 samples.

Results

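The effect of adding Parabacteroides to the gut after antibiotics was examined in dorsal hippocampus by comparing rats that shared the antibiotic course and differed in what was given afterwards. The comparison holds 13 of the 34 rats in the series, chosen by their sample labels: all 7 labelled Abx_Pb, called ABX-PARA here, and all 6 labelled Abx_Sal, called ABX-SAL. Every rat was a male Sprague Dawley that arrived at postnatal day (PN) 26 to 28. Over a 7-day course both groups were gavaged with vancomycin at 50 mg/kg and with neomycin and metronidazole at 100 mg/kg each. Their drinking water held ampicillin at 1 mg/mL, which the study's methods say was replaced by plain water on day 7. ABX-PARA rats were then gavaged with Parabacteroides distasonis and Parabacteroides johnsonii in equal parts, and ABX-SAL rats with saline, and tissue was collected at PN 83. Bacteria that remained or returned in the ABX-SAL gut were not measured in these files, so ABX-SAL is a control for the gavage of bacteria and not a germ-free state. The labels give each rat its own sample, and the study's methods state that 1 control and 1 treated rat of this experiment were removed as outliers.

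Parabacteroides are anaerobic bacteria of the normal mammalian gut. Broad antibiotics deplete resident gut bacteria, which makes it easier for introduced strains to settle. The hippocampus is needed for spatial and episodic memory, and messenger RNA abundance in it can be read as a record of which genes its neurons, glia and vessels are using at the time of collection.

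RNA abundance was measured as the number of reads assigned to each of 31196 Ensembl transcripts. The files carry transcript identifiers without gene names, and no table used here pairs them, so transcripts are described by identifier, length and abundance. The expression of the mitochondrial, synaptic and metabolic gene lists, and the markers of hippocampal cell types, was therefore not analysed here. Assigned reads ranged from 15351140 to 16951752 per ABX-PARA rat and from 15350611 to 18324180 per ABX-SAL rat. The groups did not differ in depth beyond the spread between rats (log2 difference -0.0308, exact permutation test over 1716 groupings, two-sided, p = 0.478). Single rats moved this difference by more than 1.5 times: it was -0.0178 without ABX-PARA rat 1, and -0.0464, -0.0526, -0.0015 and -0.0143 without ABX-SAL rats 3, 5, 6 and 7 in turn. It reversed to 0.00746 in the second set of label numbers, described below with the whole profiles (exact permutation p = 0.905). In bulk tissue, fewer cells of a type and less RNA per cell cannot be told apart.

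No transcript differed between ABX-PARA and ABX-SAL after adjustment in edgeR, while DESeq2 and limma voom called 1 transcript each. Of the 20977 transcripts with enough reads to test, 0 (0%) passed an adjusted p of 0.05 in edgeR's quasi-likelihood test with Benjamini-Hochberg adjustment, and the lowest adjusted p was 0.807. At an unadjusted p under 0.05 the same test gave 1286 transcripts (6.13% of those tested), 678 (3.23%) in the direction of higher and 608 (2.90%) in the direction of lower abundance with Parabacteroides. DESeq2 called 1 transcript after adjustment and gave 1372 of the same 20977 at an unadjusted p under 0.05. limma voom with sample quality weights also called 1, a different transcript that was lower in ABX-PARA. It gave 1695 of the 20977 at an unadjusted p under 0.05. The tools therefore differed in whether any transcript passed, and they called no transcript in common.

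At an unadjusted p under 0.01, 210 transcripts (1.00% of those tested) were counted, with 114 (0.543%) above and 96 (0.458%) below the ABX-SAL level. This count ranged from 125 to 348 when 1 rat was left out and from 94 to 357 in the other settings. Neither direction was the larger throughout: lower transcripts outnumbered higher ones in 7 of 12 other settings and in 8 of the 13 fits that left out 1 rat. The log2 fold changes of the 210 transcripts ran from -2.73 to 3.29. The median size was 0.276, against 0.101 over all tested transcripts, and 92 of them (43.8%) lay within 0.25 of 0. A total of 17 exceeded a size of 1, which is a 2-fold difference, 7 of them higher and 10 lower in ABX-PARA. Over all tested transcripts the median log2 fold change was 0.00364, the middle 50% lay between -0.103 and 0.0983, and 51.1% were higher in ABX-PARA. Transcripts in which every ABX-PARA rat lay above or below every ABX-SAL rat numbered 41 (0.195% of those tested), 25 above (0.119%) and 16 below (0.0763%).

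**Figure D1:**
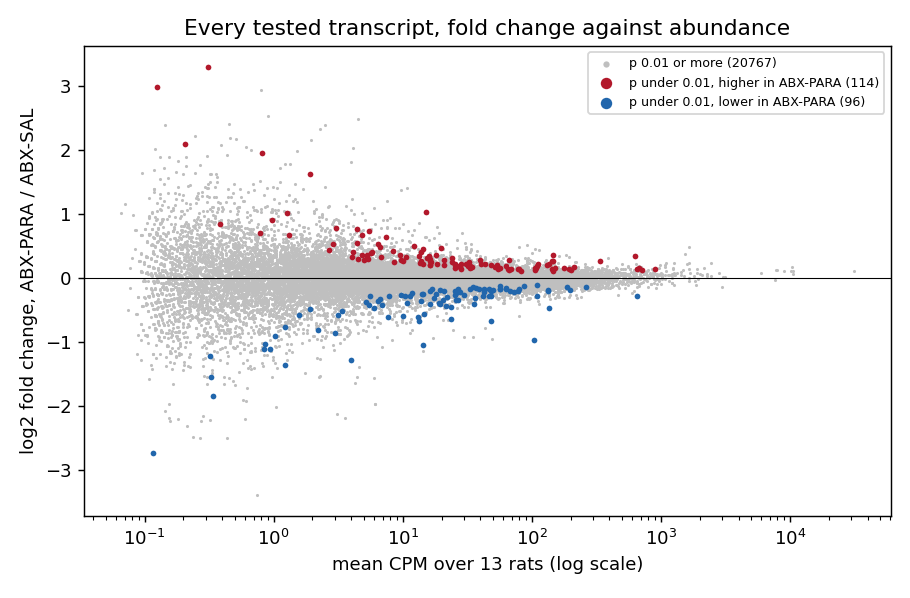
Log2 fold change of ABX-PARA over ABX-SAL against mean CPM for each of the 20977 tested transcripts. CPM is reads scaled to the library total after TMM normalization, shown on a log axis. The 210 at an unadjusted p under 0.01 are in color, red for higher and blue for lower in ABX-PARA. The points narrow toward 0 as abundance rises, and the colored points lie on both sides, 114 above and 96 below.

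The lack of adjusted calls in edgeR was read against the precision of the measurement. The 95% interval of the log2 difference, from a limma fit to log2 CPM, had a median half-width of 0.275 over all tested transcripts. Precision rose with abundance: the median half-width was 0.752 for the 3214 transcripts under 1 CPM, 0.404 for the 6538 between 1 and 10 CPM, 0.176 for the 9227 between 10 and 100 CPM and 0.133 for the 1998 at 100 CPM or more. For 84.8% of transcripts the whole interval lay within 1 of 0, so that a difference of 2-fold or more on this scale was outside it. For 60.4% it lay within 0.5 of 0. These intervals are per transcript and are not adjusted for the number of transcripts. Below 1 CPM 47.1% of intervals lay within 1 of 0, and for the other transcripts of that range the interval reached a 2-fold difference or beyond. The prior count of 2 in these log2 CPM values draws differences toward 0 where reads are few. Below 1 CPM an interval within 1 of 0 therefore does not exclude a 2-fold difference in abundance.

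**Figure D2:**
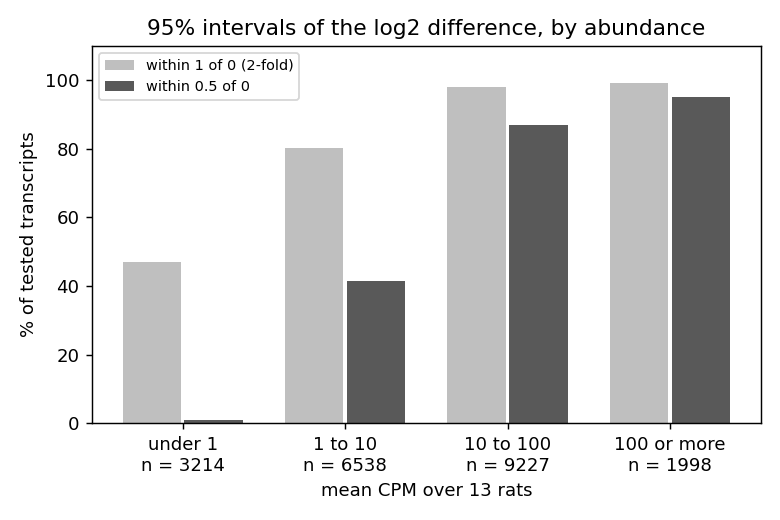
Share of tested transcripts, in percent, whose 95% interval of the log2 difference lay wholly within 1 (light bars) or 0.5 (dark bars) of 0, for 4 ranges of mean CPM with the number of transcripts under each. The light bars rise from 47.1% under 1 CPM to 99.3% at 100 CPM or more, and the dark bars from 0.965% to 95.2%.

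The 2 transcripts higher and the 2 lower in ABX-PARA with the smallest p-values, among those with a mean of at least 1 CPM, were examined rat by rat. They were chosen on these values, so the separation of the groups in them is a description and not a further test. Each had an adjusted p of 0.807 in edgeR.

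ENSRNOT00000003966.3, of 1849 bases, was at 7.65, 7.32, 7.91, 6.62, 7.72, 8.15 and 8.21 CPM in the ABX-PARA rats, with a lowest value of 6.62, a median of 7.72 and a highest value of 8.21. In the ABX-SAL rats it was at 5.22, 4.86, 5.69, 5.75, 5.16 and 6.09 CPM. Every ABX-PARA rat lay above every ABX-SAL rat. The means were 7.65 ± 0.547 (SD, n = 7) and 5.46 ± 0.457 CPM (SD, n = 6), a log2 fold change of 0.49 (SE 0.083, edgeR unadjusted p = 4.39e-05). This is the transcript that DESeq2 called (log2 fold change 0.48, adjusted p = 0.0346). Its adjusted p across the other alternatives did not pass 0.05. In the 7 SAL-SAL rats, which received no antibiotics and were scaled here together with the 13, it ranged from 4.48 to 7.01 CPM with a median of 6.43, overlapping both groups. SAL-SAL values come from this scaling of 20 rats and the other values from the scaling of 13, so small gaps between them are not read as differences.

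ENSRNOT00000026121.7, of 2012 bases, ranged from 8.51 to 11 CPM in ABX-PARA with a median of 9.21, and from 6.07 to 7.9 CPM in ABX-SAL with a median of 7.19. The groups did not overlap. The means were 9.61 ± 0.929 and 7.16 ± 0.68 CPM, a log2 fold change of 0.42 (SE 0.088, edgeR unadjusted p = 0.000273). The SAL-SAL rats ranged from 6.82 to 8.59 CPM, with a median of 8.1.

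ENSRNOT00000076521.1, of 4167 bases, was lower in ABX-PARA, where it ranged from 14.4 to 17 CPM with a median of 16. In ABX-SAL it ranged from 18.1 to 22 CPM with a median of 19, above every ABX-PARA rat. The SAL-SAL rats ranged from 16.5 to 20.4 CPM with a median of 17.2, overlapping both groups. The means were 15.7 ± 1.06 and 19.4 ± 1.45 CPM, a log2 fold change of -0.31 (SE 0.063, edgeR unadjusted p = 0.000276). Its estimated counts were not whole numbers in every rat, so part of its reads was divided with other transcripts.

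ENSRNOT00000010717.6, of 4418 bases and the most abundant of the 4, ranged from 37.1 to 43.3 CPM in ABX-PARA with a median of 39.1. In ABX-SAL it ranged from 44.3 to 50.3 CPM with a median of 46.1, again with no overlap. The means were 39.8 ± 2.4 and 46.5 ± 2.07 CPM, a log2 fold change of -0.22 (SE 0.048, edgeR unadjusted p = 0.000356). The SAL-SAL rats spread from 30.9 to 52.3 CPM, wider than both antibiotic groups, with a median of 36.6 in the scaling of 20 rats.

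**Figure D3:**
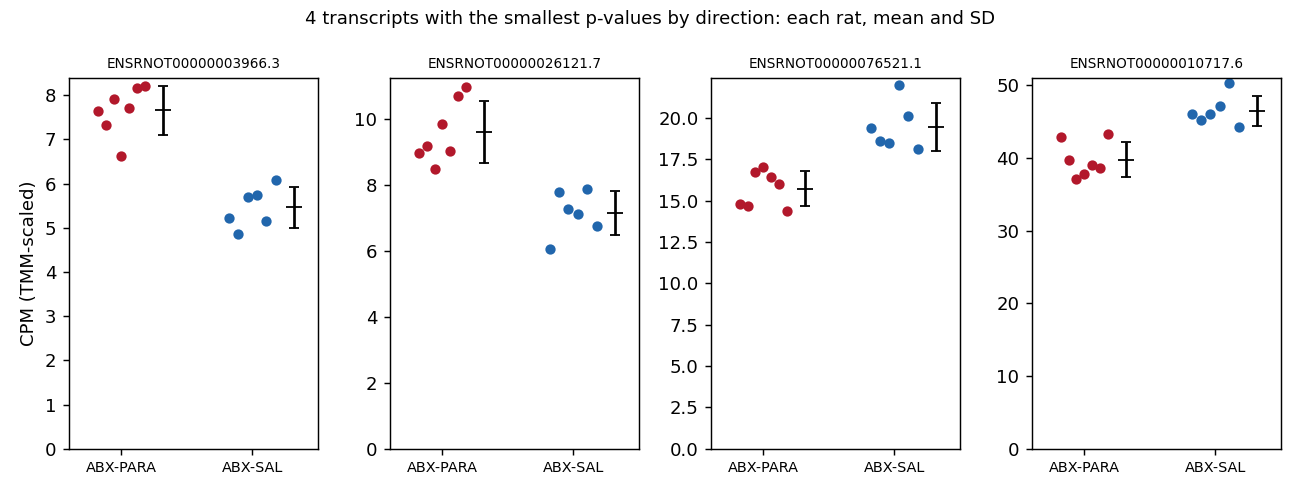
TMM-scaled CPM in each of the 7 ABX-PARA (red) and 6 ABX-SAL (blue) rats for the 4 transcripts with the smallest p-values by direction, with the mean and SD in black and each axis starting at 0. The groups do not overlap in any of the 4, and the widest relative gap is in ENSRNOT00000003966.3, with means of 7.65 and 5.46 CPM.

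The most abundant transcripts were compared next, because small relative changes in them move many reads. The most abundant, of 1545 bases, held 3.13% of assigned reads on average. It ranged from 28400 to 35400 CPM in ABX-PARA and from 25300 to 34400 CPM in ABX-SAL, a log2 fold change of 0.11 (SE 0.071, edgeR adjusted p = 0.815). Log2 fold changes of the 10 most abundant ran from -0.03 to 0.17, and the groups overlapped in each. Together these 10 took 11.4% ± 1.1 of reads in ABX-PARA (SD, n = 7) and 10.8% ± 1.15 in ABX-SAL (SD, n = 6), a difference of 0.643 percentage points that was within the spread between rats (exact permutation test, two-sided, p = 0.323). Single rats moved it by more than 1.5 times: it was 0.366 without ABX-PARA rat 8, 0.97 without ABX-PARA rat 7, 0.306 without ABX-SAL rat 6 and 1.01 without ABX-SAL rat 5. In the 10 rats of the second set of label numbers, described below with the whole profiles, it was 0.202 (exact permutation p = 0.762). A transcript of 204 bases among them took 39.8% to 46.3% of all TPM, a unit that divides reads by effective length, because its effective length was 10.4 bases.

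Presence of a transcript also did not separate the groups. In all 13 rats 18550 transcripts had a read, and 5264 had none in any rat. No transcript (0) was read in all ABX-PARA rats and no ABX-SAL rat, or the reverse. In at least 6 ABX-PARA rats and no ABX-SAL rat there were 2 transcripts, with at most 14 reads summed over the rats. The opposite pattern, at least 5 ABX-SAL rats and no ABX-PARA rat, was met by 3, with at most 33 reads.

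The rats were then compared as whole profiles. On the first 2 principal components, which held 14.6% and 10.6% of the variance of the 500 most variable transcripts, group membership accounted for 4.01% of the spread (exact permutation test, two-sided by construction, p = 0.717). ABX-PARA rats lay on both sides of the ABX-SAL rats. The most distant were ABX-PARA rat 8, at -50 on the first component, and ABX-PARA rat 1, at 46.5 on the second. Both belong, with ABX-SAL rat 7, to a first set of 3 rats by the S numbers in their labels, whose meaning is not given. Membership in this set of 3 or in the other 10 accounted for 22.2% of it (exact permutation test, p = 0.0559). With 2 ABX-PARA and 1 ABX-SAL rat the first set is too small to test alone. In the other 10 rats the share between the groups was 7.12% (exact permutation p = 0.563). It was 0.758% without ABX-PARA rat 8, 8.4% without ABX-PARA rat 7 and 1.25% with whole counts only.

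**Figure D4:**
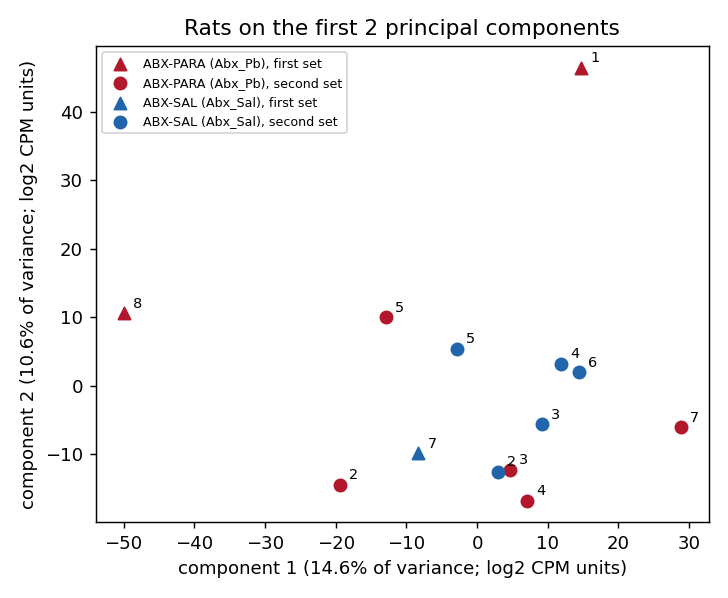
Positions of the 13 rats on principal components 1 and 2 of log2 CPM, red for ABX-PARA and blue for ABX-SAL, triangles for the first and circles for the second set of label numbers, with replicate numbers beside the points. The ABX-SAL rats lie among the ABX-PARA rats, and ABX-PARA rats 8 and 1 lie farthest out, at -50 on component 1 and 46.5 on component 2.

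Spearman correlations between rats, over 17763 transcripts, had medians of 0.9783 within ABX-PARA, 0.9812 within ABX-SAL and 0.98 between the groups. The median between groups lay between the 2 medians within groups. The distance of each rat from the mean of the others, a root mean square difference in log2 CPM, was 0.552 ± 0.0596 in ABX-PARA and 0.514 ± 0.0272 in ABX-SAL (exact permutation test, two-sided, p = 0.168). The largest distance, 0.665, was that of ABX-PARA rat 8. The difference of 0.0389 was 0.0225 without that rat and 0.0121 in the 10 rats of the second set (exact permutation p = 0.603). The number of transcripts with a read differed by -59.8 over the 13 rats (exact permutation p = 0.26) and by 1.2 in the second set. Of the 4 measures of this kind (distance, share of the 10 most abundant, transcripts with a read, and the length slope below), each had a Benjamini-Hochberg adjusted p of 0.323.

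Abundance was also examined against transcript length, since a length trend in this series was already known from earlier results. Those results set ABX-PARA against combined controls of the same experiment, so the values below are no independent support for such a trend. The slope of each rat's log2 CPM, relative to the mean of the 13, on log2 length was -0.00539 ± 0.0228 in ABX-PARA and 0.00629 ± 0.0105 in ABX-SAL. The difference, -0.0117, was within the spread between rats (exact permutation test, two-sided, p = 0.304). It was -0.00452 without ABX-PARA rat 8, -0.00875 in the second set and -0.0189 with transcripts of at least 1 CPM on average (exact permutation p = 0.155). With only the transcripts whose counts were whole numbers in every rat, the difference was -0.0235 (exact permutation p = 0.0437).

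Transcripts were divided into 5 length classes after a first look at the data, and 1 value per rat was tested in each. The 3557 transcripts over 4000 bases had a median log2 fold change of -0.046, and 36.6% were higher in ABX-PARA, against 51.1% of all tested. Each rat's median deviation in this class ranged from -0.074 to 0.034 in ABX-PARA and from 0.01 to 0.051 in ABX-SAL. The ranges overlapped: 4 of the 7 ABX-PARA rats (8, 2, 5 and 3) lay below every ABX-SAL rat, and the other 3 lay among them. This class had the smallest p of the 5 (exact permutation test, two-sided, p = 0.0326), which did not pass after adjustment over the 5 classes (adjusted p = 0.15). The difference of -0.0461 was -0.0353 without ABX-PARA rat 8. In the 6388 transcripts over 1000 and up to 2000 bases, 58.2% were higher in ABX-PARA, with a median log2 fold change of 0.025 (exact permutation p = 0.0676, adjusted p = 0.15). The 7591 transcripts over 2000 and up to 4000 bases were divided evenly, with 49.8% higher. The 2465 transcripts over 500 and up to 1000 bases had a median log2 fold change of 0.029 (exact permutation p = 0.168), and the 976 of up to 500 bases one of 0.02 (exact permutation p = 0.0897). No class passed after adjustment. Of the transcripts at an edgeR unadjusted p under 0.01, 9 over 4000 bases were higher and 34 lower in ABX-PARA. Over 2000 and up to 4000 bases the counts were 31 and 34, and over 1000 and up to 2000 bases 44 and 18. They were 22 and 8 over 500 and up to 1000 bases, and 8 and 2 up to 500 bases. Between 0.856% and 1.22% of each class was in this list, against 1.00% of all tested transcripts (0.543% higher and 0.458% lower). Both lower transcripts identified above were over 4000 bases. This split by length was not tested. RNA quality per rat was not analysed here, and its part in these values was not tested.

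**Figure D5:**
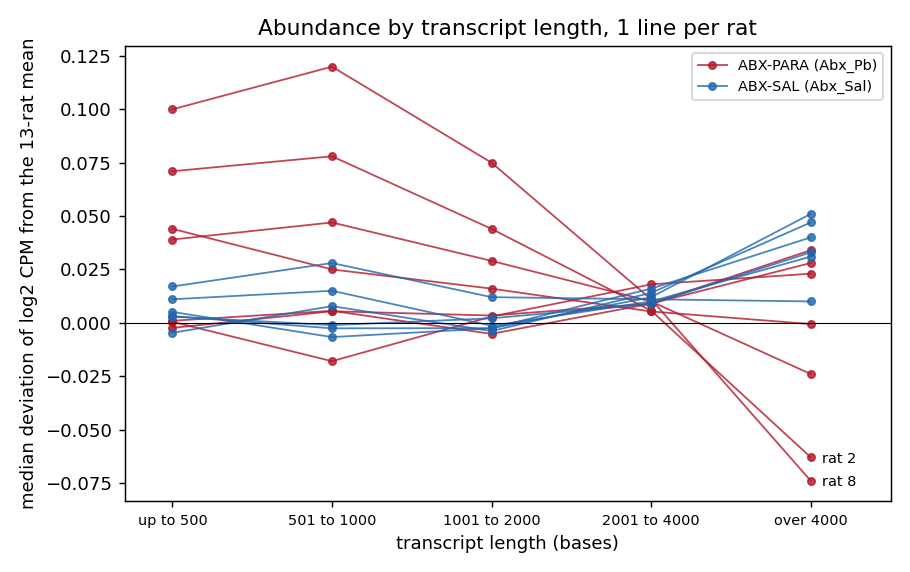
Median deviation of log2 CPM from the 13-rat mean for each of 5 transcript length classes (bases), with 1 line per rat, red for ABX-PARA and blue for ABX-SAL. Over 4000 bases, ABX-PARA rats 8 (-0.074), 2 (-0.063), 5 (-0.024) and 3 (-0.00059) lie below every ABX-SAL rat, and up to 500 bases the same 4 lie above every ABX-SAL rat, while the other 3 ABX-PARA rats lie close to the ABX-SAL rats in both classes.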

How the data were processed

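RNA from dorsal hippocampus punches was sequenced as single reads from mRNA libraries, trimmed with Trim Galore and quantified by the authors with Salmon against the Rnor6 transcriptome; the Salmon version is not given in the sources used here. The deposited files hold, per rat and transcript, the estimated counts, not normalized, with shared reads divided between transcripts, and TPM scaled by the authors to 1 total per rat. TPM was used only for 1 description. Of the transcripts, 51.1% had whole counts (within 5e-04) in all 34 rats, and 50.8% of the reads of the 13 rats fell on the rest.

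Counts were rounded, and a transcript was tested if its count exceeded 1 in over 50% of the 13 rats. These 13 rats were fitted with edgeR 4.0.16 (quasi-likelihood F-test, TMM, R 4.3.3), with Benjamini-Hochberg adjustment over all tested transcripts and a threshold of 0.05. Single values per rat were tested by exact permutation. Intervals came from limma 3.58.1 on log2 CPM (prior count 2), and the scripts were tested on simulated data. Rats were housed singly per the study's methods, and p-values measure the spread between these rats. No pair of rats in a group agreed within sampling noise (chi-square per degree of freedom 4.79 to 44.5 over 36 pairs).

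The comparison, gene lists and tests were chosen with earlier results of these data known. The length classes, distance, share of the 10 most abundant transcripts, presence patterns and precision ranges were added after a first look at the values. The naming rule took the 10 smallest p-values in each direction; with no gene names, 2 of each were printed. The gene lists and cell type markers could not be run, and the authors' sum to genes was not repeated. Alternatives included DESeq2 1.42.0, voom, other scaling and filters, label sets and leaving out each rat.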

Additional observations from a re-analysis of the deposited data

How the results depend on the processing

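The count of transcripts at an adjusted p under 0.05 was 0 in edgeR under every alternative run and without each rat in turn, and 1 with DESeq2 and 1 with limma voom. The count at an unadjusted p under 0.01, 210, moved by more than 1.5 times with DESeq2 (357, of which 204 were shared with the 210). It also did so with voom (344) and with the replicate number as a block (94). With whole counts only it was 100, but from 8547 tested transcripts in place of 20977. Of the 210, 90 (42.9%) had whole counts, against 40.7% of all tested. Without single rats the count ranged from 125 to 348. It moved by more than 1.5 times without ABX-PARA rat 2 (131), 5 (133) or 7 (348) and without ABX-SAL rat 2 (125) or 6 (126). The larger direction also changed, from 114 higher and 96 lower as reported. Lower transcripts were more numerous in 8 of 13 fits without single rats and in 7 of the 12 other alternatives. Among these 7, higher and lower counts were 155 and 189 with voom, and 98 and 117 without a low-count filter. They were 39 and 55 with the block, and 46 and 54 with whole counts. With the label set as a covariate they were 87 and 88, and in the second set 86 and 146. Higher transcripts were more numerous in the other 5, among them 192 and 165 with DESeq2. With each rat's trend on transcript length removed, also among these 5, the counts were 110 and 79. The cause of these changes was not tested.

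The 5 shared replicate numbers did not pair the rats: same-numbered deviations correlated between -0.15 and 0.054, and no rat correlated best with its own number. The block left 0 adjusted calls.

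The difference in assigned reads reversed to 0.00746 in the second set (exact permutation p = 0.905). The length slope difference was -0.0235 with whole counts only, the 1 alternative in which it passed 0.05, was -0.0189 with a mean of at least 1 CPM, and ranged from -0.0149 to -0.00452 without single rats. The difference over 4000 bases ranged from -0.0537 to -0.0353 without single rats, with p adjusted over the 5 classes from 0.0541 to 0.257. The 4 identified transcripts, chosen on their p-values, kept their sign in each alternative that gave them a value. Their edgeR unadjusted p was at most 0.00091 without single rats. It rose to 0.015 for ENSRNOT00000076521.1 with the replicate block and to 0.0163 for ENSRNOT00000010717.6 with all 20 rats fitted. The planned gene list alternatives were not run. Low abundance limits what could be detected, as the interval widths show, and intervals do not cover division of shared reads.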
